A study of Mus musculus with 2 samples.

Results

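The chaperones, chaperonins and heat shock proteins of mouse mucosal mast cell cultures were followed from day 4 to day 20 of differentiation. Members were all gene probes whose symbol begins with Hsp (other than Hspg2, a proteoglycan), Dnaj or Cct2 to Cct8, or equals Tcp1. Probes known only by an accession were added where their description names a heat shock protein. Of these, any described as similar to one, or as homolog, hypothetical or inferred, were left out. The rule found 67 of 20868 gene probes, which stand for 63 of 20725 gene names. It used names alone and no measured value, although the members were chosen with earlier results of these data known.

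RNA of day 4 and of day 20 cultures was hybridised together on 2 two-colour Agilent arrays, in a study that looked for genes specific to mucosal mast cells. All cultures grew with IL-3, IL-9, SCF and TGF-beta 1, so both days share these factors, and neither the starting cells nor the mouse strain is given in the sources used here. Each labelled RNA was a pool of 3 samples, array 2 used pools of other origin than array 1, and the dyes were swapped between them. Each value below is a log2 ratio of day 20 over day 4, so that a gene has 2 ratios. The p-values concern only the spread between these 2 arrays. In limma that spread is moderated, with 12.2 prior against 1 residual degrees of freedom, so it comes mostly from all tested genes together. A gene can therefore pass although its own 2 ratios differ widely.

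Chaperones bind unfolded proteins and help them reach or keep their shape. Hsp70 proteins work with J-domain partners, which bring substrates and stimulate their ATPase, and with nucleotide exchange factors such as the Hsp110 proteins, which reset them. Hsp90 acts later on kinases and receptors, while the barrel-shaped chaperonins, Hsp60 with its lid Hsp10 in mitochondria and TRiC in the cytosol, enclose a substrate while it folds. Heat shock factors raise many of these genes under stress through repeats of the short element nGAAn, and the endoplasmic reticulum has its own set, induced by the unfolded protein response through a CCAAT element spaced from CCACG. Mast cells store proteases in granules after folding them in the endoplasmic reticulum.

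Upstream sequences are shown for some of the genes described below. The first is the stretch between the starts of Hspd1 (Hsp60) and Hspe1 (Hsp10), which lie head to head and whose probes both fell. The second is Hspa1a, one of the genes that share the name hsp68 with the probe that rose most among the members. The others are Hspa5 and Hsp90b1, chaperones of the endoplasmic reticulum. Of these, Hspa5 fell, a call lost under some ways of processing, and Hsp90b1 did not pass the test. All come from RefSeq, build GRCm38.p6, and run 5′ to 3′ on the strand named, ending before the start of the gene. In the first pair, capitals mark matches of GAANNTTC or TTCNNGAA, joined units of the heat shock element in either order, and in the latter pair they mark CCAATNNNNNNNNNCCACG or its reverse complement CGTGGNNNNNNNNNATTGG. The places are chr1:55087933-55088147 (plus strand) between Hspd1 and Hspe1, chr17:34972157-34972406 (minus strand) for Hspa1a, chr2:34771840-34772089 (plus strand) for Hspa5 and chr10:86705445-86705694 (minus strand) for Hsp90b1.
Hspd1-Hspe1: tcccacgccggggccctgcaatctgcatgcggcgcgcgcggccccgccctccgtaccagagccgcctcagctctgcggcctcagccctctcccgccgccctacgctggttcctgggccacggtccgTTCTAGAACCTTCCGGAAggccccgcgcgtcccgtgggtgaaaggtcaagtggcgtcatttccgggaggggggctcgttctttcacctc
Hspa1a: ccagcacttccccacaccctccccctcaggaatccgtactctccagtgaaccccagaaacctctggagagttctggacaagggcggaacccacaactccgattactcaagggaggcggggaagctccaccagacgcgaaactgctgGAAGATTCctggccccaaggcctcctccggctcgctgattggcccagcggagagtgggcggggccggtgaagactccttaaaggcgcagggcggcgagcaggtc
Hspa5: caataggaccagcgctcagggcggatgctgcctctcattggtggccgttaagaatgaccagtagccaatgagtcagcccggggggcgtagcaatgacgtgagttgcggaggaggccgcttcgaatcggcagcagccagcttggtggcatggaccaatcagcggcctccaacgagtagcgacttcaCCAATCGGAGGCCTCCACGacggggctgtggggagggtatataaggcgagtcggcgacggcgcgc
Hsp90b1: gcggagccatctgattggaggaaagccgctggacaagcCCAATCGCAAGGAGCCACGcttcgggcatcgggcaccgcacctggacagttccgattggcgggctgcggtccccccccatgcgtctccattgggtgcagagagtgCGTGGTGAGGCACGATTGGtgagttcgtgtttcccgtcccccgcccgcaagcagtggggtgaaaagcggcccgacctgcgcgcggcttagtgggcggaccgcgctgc

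The stretch of 215 bases shared by Hspd1 and Hspe1 held 3 matches, which overlap into 1 run. In the 250 bases before Hspa1a there was 1 match. The same bases of its near-copy Hspa1b differed at 3 positions, were 98.8% identical and also held 1 match. Across the RefSeq windows of 250 bases before to 50 after each start, 46 of 63 members had an entry. The Hsp60 and hsp68 probes carry no gene symbol here, so Hspd1, Hspa1a and Hspa1b are outside these 46. GAANNTTC or TTCNNGAA was found in 10 of these 46 (21.7%), against 17% of 27025 genes. Those 10 were Cct2, Cct5, Cct6a, Dnaja1, Dnaja4, Dnajb4, Dnajb6, Hspb8, Hspe1 and Hsph1. The longer GAANNTTCNNGAA or TTCNNGAANNTTC, which overlaps the shorter motif, was found in 3 of 46 (6.52%), namely Dnajb6, Hspe1 and Hsph1, against 0.662% of all genes. The CCAAT and CCACG motif was also found in 3 of 46 (6.52%), namely Dnajc3, Hsp90b1 and Hspa5, against 0.137% of all genes. These are matches of letters in a window and were not tested as binding sites.

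From day 4 to day 20 more chaperone genes fell than rose, and 1 Hsp70 probe went far the other way. Barrel and lid of the mitochondrial chaperonin fell, as did Hsp90aa1, Hsph1 and Dnajc2, under every setting that kept both arrays. Also lower were 7 of 9 TRiC probes (against 9.31% of all tested genes) and Hspa14, which forms the ribosome-associated pair with Dnajc2. Of the 7 TRiC calls, 1 was kept with the ratios of the scanner software and 2 with median centring. The call of Hspa14 was kept with neither. The probe described as hsp68, the stress-inducible Hsp70, rose 9.62-fold. Among 28 tested J-domain proteins Dnajb4 and Dnajb9 rose and Dnajb11, Dnajc2 and Dnajc19 fell. Their share of calls was near the 17.2% over all tested genes. The calls of Dnajb4, Dnajb9 and Dnajb11 were lost with median centring. Of 4 tested small heat shock proteins 0 passed the test, and nothing is read from so few.

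Of the 63 genes, 59 could be tested, being well above background in both channels of day 4 or both of day 20. By limma with Benjamini-Hochberg adjustment over all 18076 tested genes, at an adjusted p of 0.05, 3 members rose (5.08%) and 20 fell (33.9%). Among all tested genes 7.85% rose and 9.31% fell, 17.2% in either direction. The share of members that fell was above the background, and nothing is read from the few that rose. Because the members were chosen with earlier results of these data known, this comparison is a description and no independent test. With the ratios of the scanner software 8 members fell (633 of all genes), and with centring on the median in place of loess 10 fell (784 of all genes) and 1 rose. The ratio was below 1 on both arrays for 29 of 59 members (49.2%, against 30.4% of all tested genes) and above 1 on both for 11. The log2 ratios of 19 members had opposite signs on the arrays. Of all 18076 tested genes, 5487 lay below 0 on both arrays and 5236 above 0 on both, so split signs were common there too. The median member stood at -0.08 on the log2 scale (-0.26 on array 1 and -0.06 on array 2), beside -0.01 for all tested genes.

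**Figure D1:**
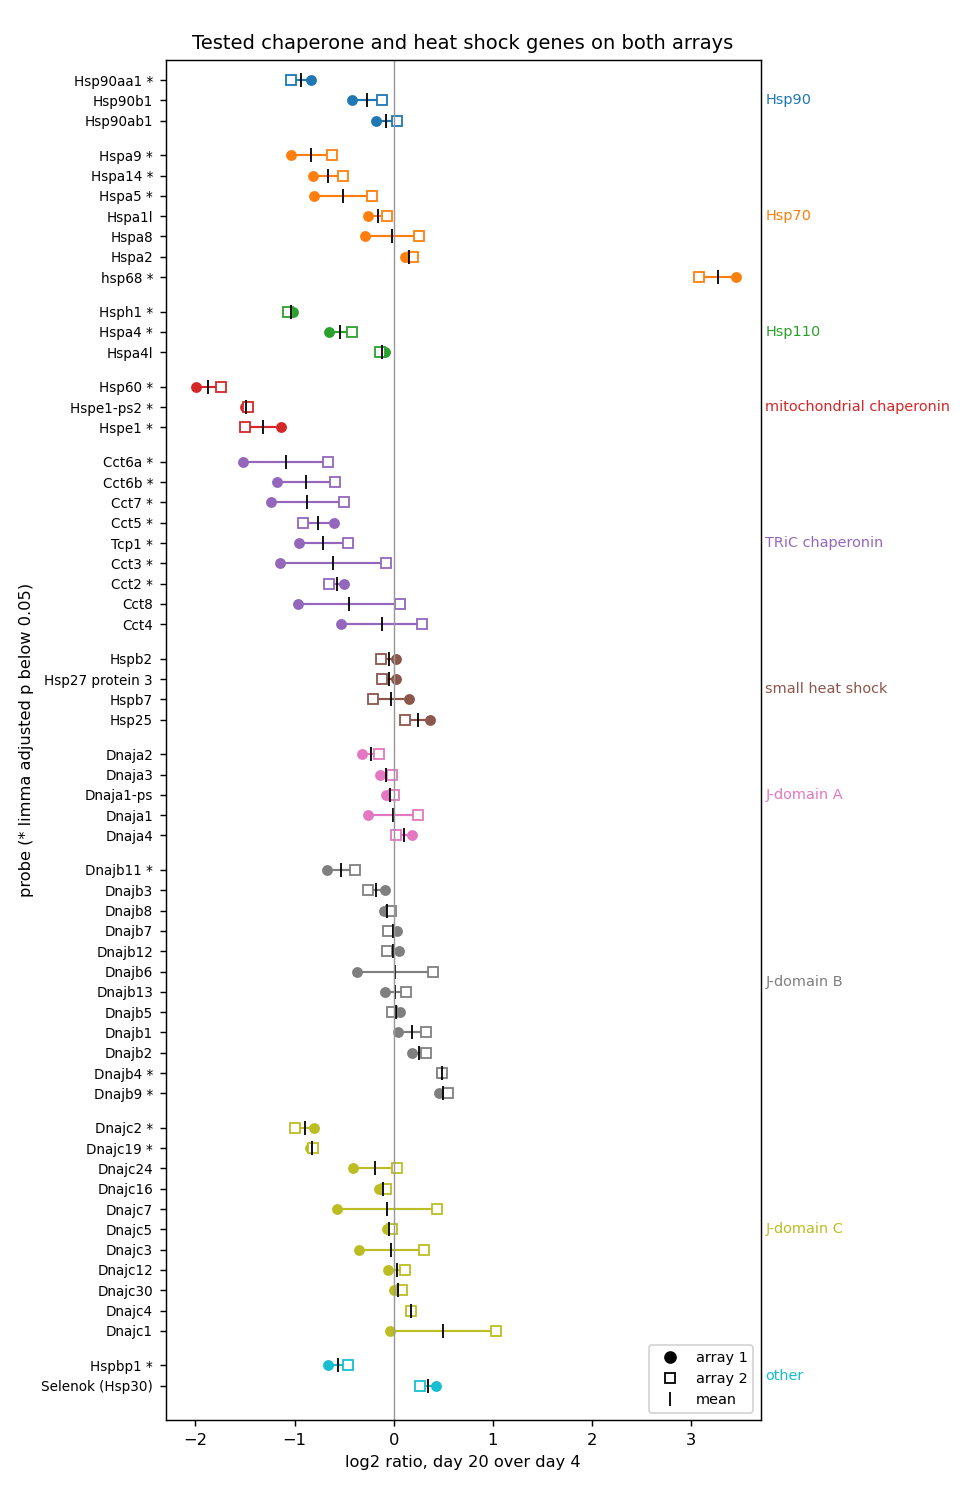
Log2 ratio of day 20 over day 4 (horizontal axis) for each of the 59 tested members, grouped by class. Filled circles are array 1, open squares array 2 and black ticks the mean of both, and an asterisk marks an adjusted p below 0.05 by limma; all 3 mitochondrial chaperonin probes and the 7 of 9 TRiC probes that passed lie left of 0 on both arrays, and hsp68 stands alone at the right.

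A change of at least 2-fold on both arrays was seen for 1 member upward (background 1.06%) and 4 downward (background 0.819%). The riser was hsp68, and those that fell were the Hsp60 probe, Hspe1, its pseudogene Hspe1-ps2 and Hsph1. Across all tested genes the ratios of both arrays correlated at Pearson r = 0.774 and Spearman rho = 0.473. These correlations are across genes of the same 2 arrays and describe how alike the arrays were.

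**Figure D2:**
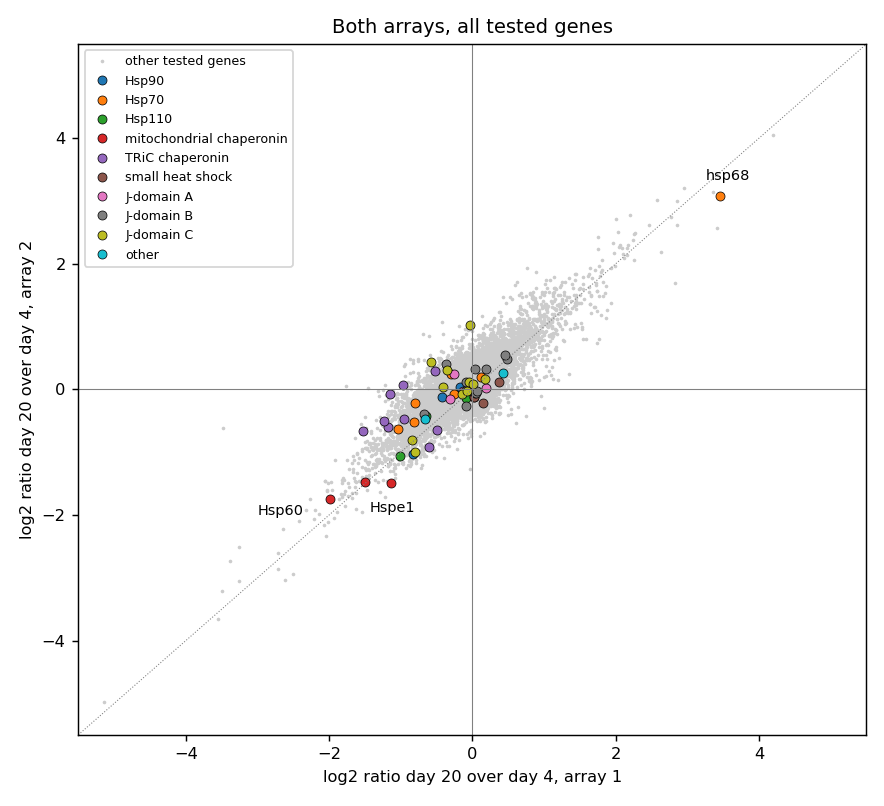
Log2 ratio of day 20 over day 4 on array 1 (horizontal axis) against array 2 (vertical axis) for 18076 tested genes in grey, with the 59 members coloured by class and the dotted line marking equal ratios. The hsp68 probe lies among the highest of all genes, the mitochondrial chaperonin probes lie at the lower left, and most TRiC probes lie above the line, being lower on array 1 than on array 2.

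The cultures also changed in their cell markers. Of 8 mast cell markers tested, out of 10 listed, 7 rose (against 7.85% of all tested genes), and Hdc, which makes histamine, fell. The summed signal of these 8 markers went from between 67454 and 71274 at day 4 to between 262943 and 336601 at day 20. Of 21 tested markers of neutrophils, monocytes and macrophages, erythroid cells, basophils and eosinophils, 19 fell by limma (against 9.31% of all tested genes). Of the same 21 markers 0 rose by limma (also 0 at an unadjusted p below 0.05). The summed signal of neutrophil markers went from between 6535 and 9433 to between 676 and 846, that of monocyte and macrophage markers from between 5813 and 7602 to between 941 and 1338, and that of erythroid markers from between 1484 and 1983 to between 637 and 954. The sum for basophils and eosinophils went from between 23954 and 29120 to between 3589 and 4861. In that group Mcpt8, of basophils, fell furthest (mean log2 ratio -2.78), while the eosinophil genes Epx (-0.45) and Prg2 (-0.41) fell less. All 21 of these markers were well above background in both channels of at least one day. These markers fell over the same days as the chaperone genes described next, and their part in those changes was not tested. In such mixed RNA, fewer cells of a type and less RNA per cell cannot be told apart.

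The hsp68 probe read 111 at day 4 and 1219 at day 20 on array 1, in normalized signal units that include an offset of 50. On array 2 it read 95.2 and 805. Both day 20 signals were far above both day 4 signals, which were low. The log2 ratios were 3.45 and 3.08, a mean of 3.27 ± 0.26 (SD, n = 2), with an adjusted p of 1.72e-09 by limma. It ranked 2 among the rises of all tested genes by mean ratio, and the next highest member mean was 0.50. RefSeq gives hsp68 as a synonym of both Hspa1a and Hspa1b, so the probe cannot be assigned to either. The rise was 18.2-fold with no offset, and 19.4-fold in the ratios of the scanner software, which differ in both background subtraction and dye normalization.

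**Figure D3:**
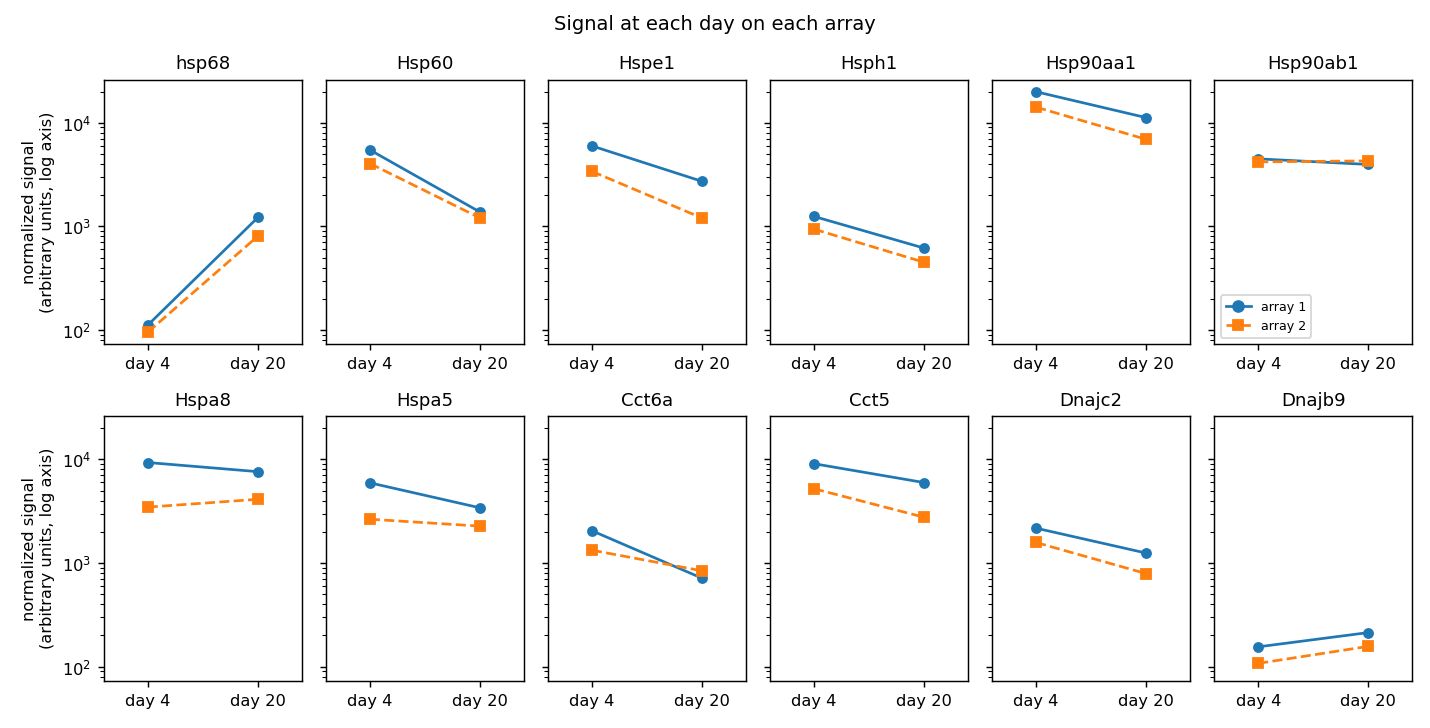
Normalized signal (arbitrary units, logarithmic axis) at day 4 and day 20 for 12 members, with array 1 as blue circles and array 2 as orange squares. The hsp68 line rises on both arrays, and the lines of Hsp60, Hspe1, Hsph1, Hsp90aa1 and Dnajc2 fall in parallel on both. Those of Hsp90ab1 and Hspa8 fall slightly on array 1 and rise slightly on array 2. Heights of different probes are not comparable.

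No other Hsp70 probe rose. Hspa8, the constitutive cytosolic Hsp70, read 9336 at day 4 and 7619 at day 20 on array 1, and 3465 and 4124 on array 2. Its ratios thus took opposite signs, -0.29 and 0.25, and the test did not pass (adjusted p = 0.997 by limma). The testis-enriched Hspa1l stood at -0.26 and -0.07 and Hspa2 at 0.11 and 0.19, and neither passed.

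Other Hsp70 proteins, of particular places in the cell, fell. Hspa9 (mortalin), the Hsp70 of the mitochondrial matrix that pulls in imported proteins, fell, with -1.04 on array 1 and -0.62 on array 2 (mean -0.83 ± 0.29, SD, n = 2; limma adjusted p = 0.000284). Hspa14, the Hsp70 of the ribosome-associated complex, stood at -0.82 and -0.52 (mean -0.67 ± 0.21, adjusted p = 0.00112 by limma). Hspa5 (BiP), the Hsp70 of the endoplasmic reticulum, stood at -0.80 and -0.22 (mean -0.51 ± 0.41, adjusted p = 0.018 by limma). Of these 3 calls, 0 held with the ratios of the scanner software and 1, Hspa9, held with centring on the median in place of loess. With no offset the call of Hspa5 was lost as well (adjusted p = 0.165 by limma).

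Among the Hsp110 exchange factors, Hsph1 (Hsp105) read 1246 at day 4 and 616 at day 20 on array 1, and 939 and 450 on array 2. The arrays gave nearly the same log2 ratio, -1.02 and -1.06, a 2.06-fold fall (limma adjusted p = 1.77e-05). Hspa4 (Apg-2) fell, with -0.65 and -0.42 on its brightest probe (adjusted p = 0.00441 by limma). Its 3 probes did not move alike: another stood at -0.73 and -0.19, and the last at 0.08 and -0.07. Averaged over the 3 probes Hspa4 stood at -0.33 and did not pass (adjusted p = 0.066 by limma). Hspa4l, a relative best known from testis, stood at -0.09 and -0.14 and did not pass. Hspbp1, another exchange factor for Hsp70, fell, with -0.66 and -0.47 (adjusted p = 0.00293 by limma). The calls of Hspa4 and Hspbp1 were lost with scanner software ratios and with median centring. That of Hspa4 was also lost with no offset (adjusted p = 0.0586 by limma).

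The cytosolic Hsp90 forms differed in their values. Hsp90aa1, the stress-inducible form, read 19900 at day 4 and 11190 at day 20 on array 1, and 14130 and 6900 on array 2. It was lower at day 20 on both arrays, at -0.83 and -1.03, which is 1.91-fold lower (limma adjusted p = 5.31e-05). Hsp90ab1, the constitutive form, stood at -0.18 and 0.03 (adjusted p = 0.92 by limma), with signals between 3957 and 4481 in all channels. Hsp90b1 (Grp94), the form of the endoplasmic reticulum, stood at -0.43 and -0.12 (adjusted p = 0.163 by limma). The difference between these Hsp90 genes was not itself tested.

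The mitochondrial chaperonin showed the deepest falls of any class. The Hsp60 probe read 5464 at day 4 and 1374 at day 20 on array 1, and 4040 and 1205 on array 2. All day 4 signals were well above all day 20 signals. Its log2 ratios were -1.99 and -1.75 (mean -1.87 ± 0.17, SD, n = 2), a 3.65-fold fall with an adjusted p of 1.48e-07 by limma, and it ranked 24 among the falls of all tested genes. The files name the protein in its description, and Hsp60 is in RefSeq a synonym of Hspd1 alone. Hspe1 (Hsp10), the lid, read 5971 and 2717 on array 1 and 3391 and 1202 on array 2. It fell, with -1.14 and -1.50, a 2.49-fold fall (adjusted p = 5e-06 by limma). Hspe1-ps2, a pseudogene of Hspe1, fell, with -1.50 and -1.47 (adjusted p = 7.67e-07 by limma), and since it is a near-copy, its probe and that of Hspe1 may read the same RNA. All 3 probes passed under every setting tried, and the class median was -1.49.

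TRiC is built from different but related subunits, all of which were on the arrays. All 9 probes were below 0 on array 1 and 7 on array 2, with a class median of -0.71 (-0.97 on array 1 and -0.51 on array 2). Cct6a fell most, from 2049 to 714 on array 1 and from 1330 to 842 on array 2, which is -1.52 and -0.66 (mean -1.09 ± 0.61, SD, n = 2; limma adjusted p = 0.000266). It fell on both arrays, but its arrays differed more than those of the mitochondrial chaperonin. Cct6b, the testis-enriched relative of Cct6a, stood at -1.18 and -0.59 (adjusted p = 0.000364 by limma). Cct7 stood at -1.24 and -0.51 (adjusted p = 0.000841 by limma). These 3 were lower at day 20 on both arrays, and more so on array 1. Cct5 read 9088 at day 4 and 5977 at day 20 on array 1, and 5210 and 2765 on array 2, so its fall was the larger on array 2.

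Cct5 and Cct2 were the TRiC subunits that fell more on array 2 than on array 1. The ratios of Cct5 were -0.60 and -0.91 (adjusted p = 0.000406 by limma), and those of Cct2 were -0.50 and -0.65 (adjusted p = 0.00242 by limma). Tcp1, the founding subunit, stood at -0.96 and -0.47 (adjusted p = 0.00138 by limma). All 3 fell on both arrays. Cct3 passed narrowly and almost wholly through array 1, with -1.15 there and -0.08 on array 2 (adjusted p = 0.0335 by limma). Cct8 had a like split, -0.97 and 0.06, and did not pass (adjusted p = 0.121 by limma). Cct4 took opposite signs, -0.53 and 0.29, and did not pass either (adjusted p = 0.876 by limma). In 7 of 9 probes the value on array 1 was farther below 0; the arrays differ in both pools and dye orientation, which cannot be told apart. Of the 7 calls, 1 (Cct6a) was kept with the ratios of the scanner software and 2 (Cct2 and Cct5) with median centring. With no offset those of Cct2 and Cct3 were lost (adjusted p = 0.0924 and 0.0516 by limma).

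J-domain proteins were the largest family, with 31 genes. Of 28 tested, 2 rose, 3 fell and 23 did not pass, and their median was -0.01. Their share of calls was near the 17.2% called over all tested genes. Dnajc2 (Zrf1, or MPP11), which forms the ribosome-associated complex with Hspa14, read 2170 at day 4 and 1247 at day 20 on array 1, and 1579 and 790 on array 2. It was lower at day 20 on both arrays, at -0.80 and -0.999 (mean -0.90 ± 0.14, SD, n = 2; limma adjusted p = 7.27e-05). Dnajc19, of the inner mitochondrial membrane, fell, with -0.84 and -0.81 (adjusted p = 0.000115 by limma). Both calls held under every setting tried.

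The J-domain partners of BiP in the endoplasmic reticulum moved in different directions. Dnajb11 (ERdj3), which binds unfolded proteins together with BiP, fell, with -0.67 and -0.39 (adjusted p = 0.00577 by limma). Dnajb9 (ERdj4), which serves the disposal of misfolded proteins, read 155 at day 4 and 213 at day 20 on array 1, and 108 and 157 on array 2. It rose by 0.46 and 0.55 (adjusted p = 0.00573 by limma). Dnajc3 (p58IPK), another BiP partner, took opposite signs, -0.35 and 0.30, and did not pass. Dnajb4, a cytosolic partner of Hsp70, rose by 0.48 and 0.49 from low signals of 106 and 91.3 at day 4 (adjusted p = 0.00703 by limma). The rise of Dnajb4 missed the threshold with median centring, and the calls of Dnajb9 and Dnajb11 were lost with both median centring and scanner software ratios. That of Dnajb11 was also lost with no offset (adjusted p = 0.113 by limma).

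The 23 J-domain genes that did not pass had means from -0.23 to 0.49. The highest were Dnajc1 (ERdj1) and Dnajb2, and the lowest Dnaja2 and Dnajc24, which takes part in making diphthamide on elongation factor 2. Dnajc1 stood at -0.04 on array 1 and 1.03 on array 2 (adjusted p = 0.0944 by limma), whereas its dimmer second probe gave 0.21 and 0.23. Dnajb2 stood at 0.19 and 0.33, Dnaja2 at -0.32 and -0.15, and Dnajc24 at -0.41 and 0.03. Of the 5 class A genes 0 passed by limma (against 17.2% of all tested genes), and 0 had an unadjusted p below 0.05. Nothing is read from so small a count. Dnajb1, the main stress-inducible partner of Hsp70, stood at 0.04 and 0.33 (adjusted p = 0.44 by limma).

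Of the 4 tested small heat shock proteins 0 passed by limma (against 17.2% of all tested genes), and 0 had an unadjusted p below 0.05. With so few genes nothing is read from this count. The probe described as Hsp25, a name that RefSeq gives to both Hspb1 and Hsbp1, stood at 0.37 and 0.12 (adjusted p = 0.232 by limma). A probe described as protein 3 of the Hsp27 group stood at 0.02 and -0.12. The muscle-enriched Hspb2 stood at 0.02 and -0.12 and Hspb7 at 0.15 and -0.21, both with signals of 74.3 to 121. A second Hspb7 probe, spotted 10 times on each array, stood at -0.03 and -0.02 with a spread between spots of 0.08 and 0.09 (SD). Selenok, whose probe the files describe as Hsp30 but whose accession RefSeq gives to selenoprotein K, stood at 0.43 and 0.26 (adjusted p = 0.0528 by limma).

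In all, 4 members could not be tested. Dnajc28, Dnajc5b and Hspb8 were not well above background in both channels of either day. Dnajc15, a J-domain protein of the inner mitochondrial membrane and a relative of Dnajc19, had its spot on array 2 marked as an outlier by the scanner software. On array 1 it read 1302 at day 4 and 582 at day 20, a log2 ratio of -1.16. With the marked spot kept, array 2 gave -1.49. Dnaja4 and Dnajb7 entered the test only through their day 20 channels.

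Genes that work beside the chaperones were taken from lists of names. Over all tested genes 7.85% rose and 9.31% fell. The lists are short and were not tested as sets, so nothing is read from their counts. Of 16 tested heat shock factors and co-chaperones, 0 rose by limma (1 at an unadjusted p below 0.05), 3 fell and the median was 0.04. Ppid (a cyclophilin), an Hsp90 co-chaperone, fell, with -1.59 and -1.45 (adjusted p = 7.07e-07 by limma). The Hsp90 partner Fkbp4 fell, with -0.54 and -0.38, and Stip1 (Hop), which links Hsp70 to Hsp90, with -0.59 and -0.20. The heat shock factors tested in this list, Hsf2 (-0.14 and 0.40) and Hsf4 (0.04 and 0.02), did not pass. A probe described as heat shock transcription factor 1 but known only by accession, at -0.30 and 0.24, did not pass either.

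Prefoldin hands unfolded actin and tubulin to TRiC. Of the 8 tested genes of prefoldin and TRiC assistants 1 rose and 2 fell (against 7.85% and 9.31% of all tested genes). Pfdn5 rose by 0.84 and 0.77 (adjusted p = 0.000146 by limma), while Uxt, a prefoldin-like protein, fell, with -0.60 and -0.70. Pfdn6 stood at -1.21 and -0.09 (adjusted p = 0.0286 by limma), so that its call, like that of Cct3, came almost wholly from array 1. Of 7 tested tubulins and actins, the substrates of TRiC, 2 fell (against 9.31% of all tested genes). These were Tubb6 at -1.54 and -1.39 and Tubg1 at -0.80 and -0.47.

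In the mitochondrial folding and proteolysis list, 4 of 7 tested genes fell (against 9.31% of all tested genes). In this list 0 rose (also 0 at an unadjusted p below 0.05) and the median was -0.55. Clpp, a protease of the matrix, fell, with -1.32 and -1.18 (adjusted p = 4.14e-06 by limma). Clpb, a mitochondrial disaggregase, fell, with -0.58 and -0.80, and Grpel1, the exchange factor of Hspa9, with -0.94 and -0.42. Of 20 tested genes of endoplasmic reticulum folding and the unfolded protein response, 5 fell and 1 rose, with a median of -0.10. Over all tested genes 9.31% fell and 7.85% rose. In this list the largest falls were those of Selenos (-0.66 and -0.73), Sec61b (-0.64 and -0.73) and the chaperone Calr (-0.92 and -0.38). The gene that rose was Herpud1 (0.44 and 0.55), which like Dnajb9 serves the disposal of misfolded proteins. Ddit3 and Atf4, transcription factors of the stress response, did not pass. Xbp1, from the same list, stood at -0.72 and -0.12 and narrowly did not pass (adjusted p = 0.0524 by limma).

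**Figure D4:**
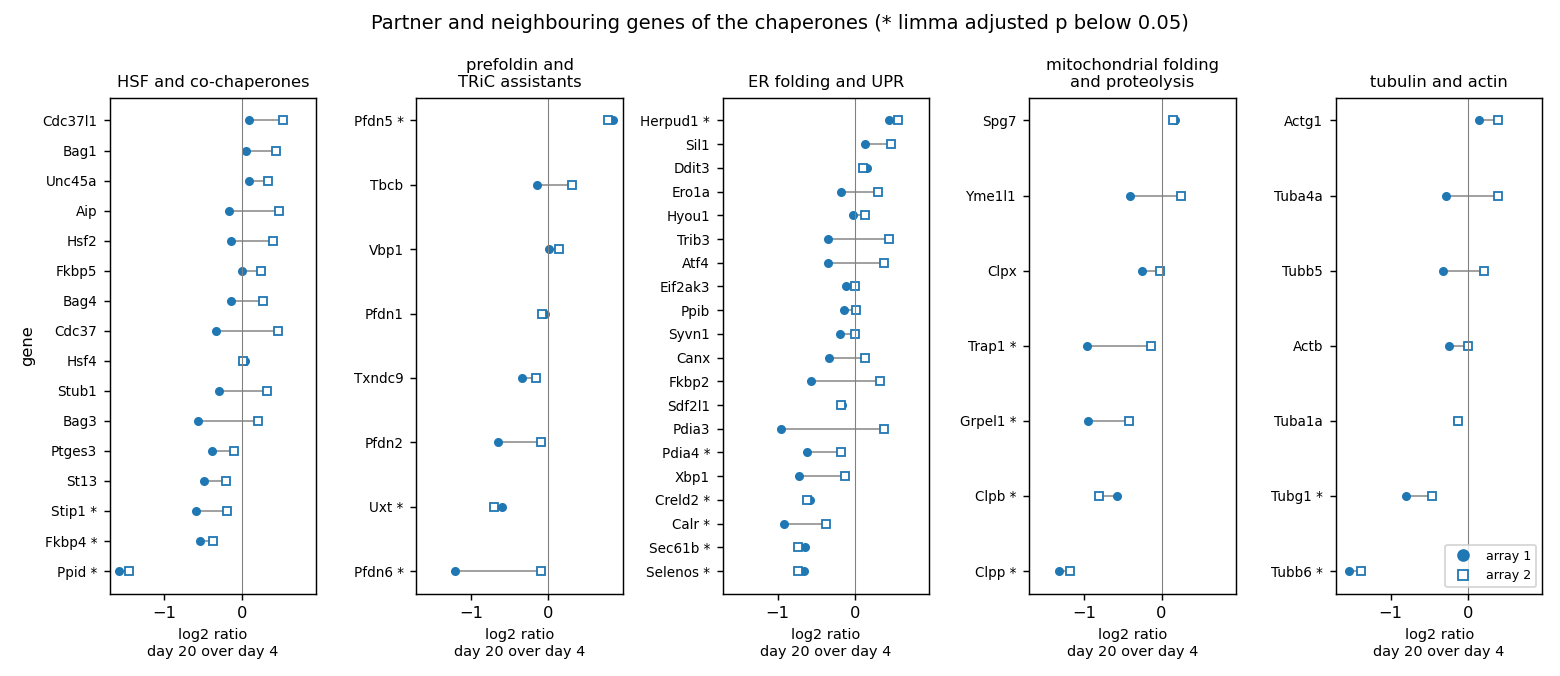
Log2 ratio of day 20 over day 4 (horizontal axes) for every tested gene of 5 lists of partner genes, with filled circles for array 1, open squares for array 2 and an asterisk for an adjusted p below 0.05 by limma. Ppid, Clpp and Tubb6 lie far to the left on both arrays, Pfdn5 lies to the right, and many genes of the endoplasmic reticulum list lie left of 0 on array 1 and right of it on array 2.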

How the data were processed

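The authors amplified total RNA linearly into labelled cRNA, per the labels, and read the arrays with Agilent Feature Extraction (version 7.5 in the submitters' processing notes, 7.5.1 in the header of array 2). Raw intensity per spot and dye was deposited for both arrays. The deposited log10 ratios are Cy5 over Cy3 after the software's own background subtraction and dye normalization, per the file headers, and the deposited value table equals them in 22393 of 22393 rows within 1e-06 and was not turned for the dye swap. Some background medians of array 1, 313 of Cy3 and 324 of Cy5, had become month names and were read back as numbers.

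Log2 ratios were computed with R 4.3.3 and limma 3.58.1: normexp background correction with an offset of 50, loess with control and outlier-marked spots at weight 0, marked spots left out, spots of a probe averaged, and array 2 turned to day 20 over day 4. The brightest probe stood for each gene name. Probes were named by accession through RefSeq (GRCm38.p6; 54 members) or by their description. Genes were tested with lmFit and eBayes against 0 (1 residual and 12.2 prior degrees of freedom), after a test on simulated data. Between 80.0% and 96.2% of gene spots per channel were well above background, and the number of arrays, 2, limits the precision. No tested member was saturated (0 of 59).

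Every member past an adjusted p of 0.05 was named, and members short of it were named in all classes but the J-domain proteins, where the 2 highest and 2 lowest were, together with Dnajb1 and Dnajc3, picked after their values were seen. Hsf2, Hsf4, Ddit3, Atf4 and Xbp1, from the partner lists, were likewise picked afterwards. The partner lists otherwise name up to 3 rises and falls each. The members and the gene lists were chosen with earlier results of these data known. Alternatives tried were no offset, the scanner software's ratios, median centring, marked spots kept, other filters on dim probes, an intensity trend with a robust prior, the mean of all probes, and each array alone.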

Additional observations from a re-analysis of the deposited data

How the results depend on the processing

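Of 23 calls, 8 held under all 8 settings that kept both arrays: hsp68, Hsp60, Hspe1, Hspe1-ps2, Hsph1, Hsp90aa1, Dnajc2 and Dnajc19. With the scanner software's ratios 10 of 23 were kept, with median centring 11, with no offset 18, and with each of the other settings 22 or 23. The number of members that fell dropped to 8 with scanner software ratios and 10 with median centring, while the number that rose was 1 with median centring and 5 under a filter for signal well above background in all 4 channels (Selenok, adjusted p = 0.0473, and Dnajc1, adjusted p = 0.0452, were added by limma). Over all tested genes, scanner software ratios gave 614 rises and 633 falls and median centring 559 and 784, against 1419 and 1683. The trend with a robust prior added Dnajc1 and Cct8 (limma adjusted p = 0.0225 and 0.0109). The cause of these differences was not tested. None of the 23 called members changed sign with both arrays in use. Of the others, all near 0 and not called, Dnaja1 (0.0124) and Hspa8 (0.0199) turned positive with no offset, and Dnaja1 (0.0117), Dnajb12 (0.0193) and Dnajb13 (-0.0396) changed sign with scanner software ratios. With 1 array the median of the members ranged from -0.26 (without array 2) to -0.0645 (without array 1), as values with no test. Probes with a low signal, such as hsp68 at day 4, carry ratios that the offset shrinks. No paired analysis was possible because the arrays form 1 group of ratios.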

Other observations

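Some probes outside the naming rule read related genes. The pseudogene Tcp1-ps1 stood at -0.98 and -0.22 on the log2 scale (adjusted p = 0.0133 by limma), and a probe for the 3′ end of the Tcp-1x RNA at -0.52 and -0.51 (adjusted p = 0.00481 by limma). Both lay below 0 on both arrays, as did Tcp1 itself, of which they are a near-copy and a variant, so these probes may share RNA. A probe described as heat shock transcription factor 1 stood at -0.30 and 0.24 (adjusted p = 0.997 by limma). Serpinh1 (Hsp47), the collagen chaperone of the endoplasmic reticulum, stood at -0.07 and -0.03 (adjusted p = 0.97 by limma). A probe described as similar to Hsp30 stood at 0.37 and 0.21, beside 0.43 and 0.26 for the Selenok probe that carries the same name (adjusted p = 0.11 and 0.0528 by limma). Probes described as Dnajb6 and Dnajc8, but known only by accession, stood at -0.26 and -0.03 and at 0.15 and 0.48, and neither passed. A probe described as similar to heat shock 70 kD protein 2 stood at -0.50 and 0.01 and did not pass (adjusted p = 0.307 by limma).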
